A study of Mus musculus with 8 samples.

Results

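The cytosolic ribosomal protein genes were described in RNA taken from ribosomes of neurons that express the mu-opioid receptor (MOR) in a midline thalamic nucleus, the paraventricular nucleus (PVT). Members were the genes named Rpl or Rps followed by a number, Rplp followed by a number, or Rpsa. The S6 kinases (Rps6k names), Rps19bp names, names ending in -ps and names with a hyphen were left out. The rule found 84 of the 18939 genes in the table: 43 of the large subunit, 31 of the small subunit, 3 of the P-stalk and 7 paralogs of other members. The rule chose members by name and not by a measured value, and each gene was taken from its transcript of highest total count.

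TRAP-Seq was run on MOR-Cre mice crossed with Rosa26 LSL-EGFP-L10a mice, on a C57Bl/6J background, aged 8 to 12 weeks at the start. Cre from the Oprm1 locus turns on a GFP-tagged copy of ribosomal protein L10a, so that anti-GFP beads collect ribosomes of cells that express MOR or did so earlier. Over 11 days the morphine group drank a solution of 0.2% saccharin with morphine, at 0.3 mg/ml to begin with and 0.5 mg/ml in the end, and the control group drank saccharin without morphine (its GEO label gives drinking water). Each group had 4 libraries (control replicates 1, 2, 5 and 6 and morphine replicates 3, 4, 7 and 8), 2 labelled male and 2 labelled female, and each library held 2 pooled gross dissections aimed at the PVT. All mice, controls included, carried the Cre and the tagged ribosomal protein, and both groups drank saccharin.

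A cytosolic ribosome is built from a small subunit, which reads the mRNA, and a large subunit, which joins amino acids, each made of ribosomal RNA and one copy of most ribosomal proteins. The mRNAs of these proteins are short, and many begin with a run of pyrimidines at the cap (a 5′ terminal oligopyrimidine, or TOP) through which the mTORC1 kinase pathway sets how strongly they are translated. Most of these genes have many processed pseudogenes, so short reads from them are hard to place.

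The libraries held 31151103 to 47582947 counts. Oprm1, which encodes MOR, stood at 25.3 ± 6.92 counts per 1000000 (CPM) in control and 16.5 ± 1.95 CPM in morphine libraries (SD, n = 4), a log2 fold change of -0.62 (SE 0.19, edgeR adjusted P of 0.207). Its lowest value was 14.0 CPM, and Tcf7l2, a thalamic neuron marker, lay between 686 and 1359 CPM, so markers of the labelled cells were present in every library. Control replicate 5, labelled female, held 49.5 CPM over 4 Y-linked genes, as compared to at most 0.0649 CPM in the other libraries labelled female and at least 128 CPM in those labelled male. Summed levels of 13 choroid plexus markers were 43.8 to 165 CPM in control and 218 to 680.5 CPM in morphine libraries, with no overlap. Fold changes with morphine were above 1 for 12 of these markers; DESeq2 called 8 of them and edgeR 0 (unadjusted P under 0.05 in 10), and 0 were at 0 counts throughout. The 8 thalamic neuron markers summed to 2318 to 3128 CPM in control and 1751 to 3038 CPM in morphine libraries, and 0 of them had a fold change above 1. Their median log2 fold change was -0.28, with 2 lower at an unadjusted P under 0.05 by edgeR and 0 called by edgeR or DESeq2. The 9 markers of telencephalic pyramidal neurons summed to 263 to 525 CPM in control and 414 to 804 CPM in morphine libraries. Of these 9 markers 8 were above 0 on the log2 fold change scale, with a median of 1.15, and 4 were called by DESeq2 (0 by edgeR). At an unadjusted P under 0.05 by edgeR 5 were higher and 1 was lower (all genes: 6.79% higher and 5.31% lower). Oligodendrocyte markers summed to 121 to 1219.6 CPM in control and 566 to 1523 CPM in morphine libraries (8 of 8 above 0, median 0.65), and astrocyte markers to 14.6 to 55.4 and 28.3 to 52.6 CPM (7 of 8 above 0, median 0.46). The part of these other cells in the values of the ribosomal protein genes was not tested. In such pooled RNA, fewer cells of a type, less RNA per cell and a different yield of tagged ribosomes or carry-over of other RNA cannot be told apart.

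The starts of some members are shown because the TOP run is the sequence by which this gene group is best known. RefSeq (GRCm38.p6) gave 75 start windows for 63 of the 84 members. A run of 8 or more consecutive C or T on the transcribed strand, overlapping the 10 bases before or the 10 bases after the annotated start, was found in 30 of the 75 windows (40.0%) and in 4497 of all 32851 windows (13.7%). Of the 75 starts, 53 are the 5′ end of the RefSeq gene record and 22 lie inside it. The start listed for Rpl5 lies 20 bases inside its record and has no run by this search, while the 5′ end of the record has one. Searched at the 5′ end of the record, a position added after the data were seen and which a window held for 58 members, 23 had a run (39.7%), as compared to 13.6% of 23664 genes. Each line below gives 30 bases, 5′ to 3′, with 15 bases before the 5′ end of the gene record and 15 from it on, and capitals mark the run. The first 6 lines are members with a run and the last is a member without one, and Rpl5 and Rps26 are the members with the lowest P values for morphine below.
Rps6: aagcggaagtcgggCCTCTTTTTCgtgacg
Rps26: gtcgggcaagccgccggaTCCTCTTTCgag
Rplp2: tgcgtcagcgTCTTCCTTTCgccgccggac
Rpl39: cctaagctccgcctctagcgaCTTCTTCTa
Rpl22l1: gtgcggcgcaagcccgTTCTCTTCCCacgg
Rpl5: tgaggcctacagccaCTCTTTCTCacgtcg
Rpl7l1: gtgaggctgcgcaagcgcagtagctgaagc
These windows lie at chr4:86857353-86857382 (minus strand, Rps6), chr10:128626492-128626521 (minus, Rps26), chr7:141447636-141447665 (plus, Rplp2), chrX:37085208-37085237 (minus, Rpl39), chr3:28805493-28805522 (plus, Rpl22l1), chr5:107900493-107900522 (plus, Rpl5) and chr17:46782642-46782671 (minus, Rpl7l1), each across the 5′ end of the gene. The 29 members with a run at a listed start had a median log2 fold change of 0.082 with morphine, the 34 without one had 0.13, and the 21 without a window had one of 0.023. By the 5′ end of the record, the 23 members with a run had 0.078 and the 35 without one 0.145. A match, or the lack of one, is a description of these letters at the annotated start, and the cap site used in these neurons was not measured. Members without a run by this search are therefore not shown to lack a TOP.

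The first question was how strongly each member was represented on the tagged ribosomes. Together the 84 genes held 0.269% to 0.341% of all counts in a library. Levels between genes were compared as counts per kilobase of the counted transcript, scaled to a sum of 1000000 in each library (level per length). On this scale the members held 0.882% ± 0.0423 (SD, n = 4) in control and 0.966% ± 0.0818 (SD, n = 4) in morphine libraries.

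Rpl41, the smallest protein of the ribosome, had the highest level per length in control libraries at 858 ± 69.9 (SD, n = 4). It was followed by Rpl8, a core protein of the large subunit, at 791 ± 62.2, Rpl4, which lines the exit tunnel of the large subunit, at 666 ± 30.4, and the P-stalk gene Rplp1 at 650.0 ± 59.7. Rps15, a small subunit protein, came next at 605 ± 76.0. The intervals of 1 SD around Rpl8 and Rpl41 overlapped, as did those around Rpl4, Rplp1 and Rps15. These SDs are between libraries, and the genes were measured in the same libraries, so the overlap does not decide the order within these sets, which was not tested. The order between and within the sets rests on the length used: with 200 bases taken off each length, Rplp1 ranked second, above Rpl8, and Rps15 above Rpl4.

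At the lower end, the paralogs Rpl39l and Rpl3l stood at 0.340 ± 0.214 and 0.694 ± 0.112. Their counts were few, with 29 and 101 counts over the 8 libraries. Among members that belong to the standard ribosome, Rpl12 was lowest at 1.02 ± 0.143, then Rps23, a protein of the decoding centre, at 1.62 ± 0.314, and Rps16 at 2.34 ± 0.206. Outside the P-stalk the standard ribosome holds its proteins in equal numbers, and the 77 members other than the paralogs spanned 841-fold in level per length. The median was 26.4 over the 43 large subunit genes and 65.7 over the 31 small subunit genes.

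To see how far the levels moved with shared sequence, every 50-base stretch of each counted transcript was searched for in the transcripts of all other GENCODE M21 genes, on both strands. The share found elsewhere ran from 0%, as in Rpl3l and Rpl39l, to 95.1% in Rpl35, with a median of 53.4%. The 36 members with at most 50% shared had a median level per length of 69.0, the 27 between 50% and 75% one of 48.2, and the 21 above 75% one of 10.8. Across the 84 genes the Spearman correlation of level and share was -0.30, a description over genes that share libraries and sequence. The study's methods describe Salmon, which shares a read out among transcripts, but in the deposited table the 2 highest transcripts of a gene had identical counts in all 8 libraries for 977 of the 3532 genes with several transcripts. How this table treats a read that fits several genes is not given in the sources used here, so the low levels of members such as Rps6 (84.6% shared, 23.0 ± 3.35) are uncertain. Rpl3 reached 175 ± 16.5 although 85.6% of its stretches are shared.

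**Figure D1:**
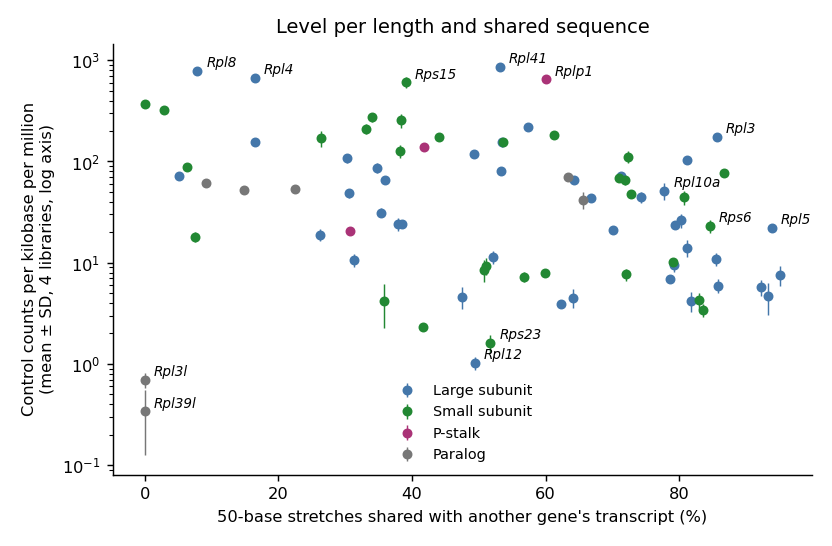
Level per length in control libraries (counts per kilobase scaled to 1000000, mean ± SD of 4 libraries, log axis) against the percent of 50-base stretches found in another gene's transcript, for the 84 genes. The highest levels (858 for Rpl41, 791 for Rpl8) lie left of 75% shared, and the 21 genes right of 75% have a median of 10.8.

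Of the paralogs, Rps27l and Rpl36al had higher levels per length than the genes they resemble. Rps27l stood at 53.7 as compared to 9.34 for Rps27, with 76.1% of coding bases identical, and Rpl36al at 70.2 as compared to 10.8 for Rpl36a, with 87.9% identical. The shared stretches were fewer in the paralogs (22.4% in Rps27l and 51.1% in Rps27, 63.3% in Rpl36al and 85.5% in Rpl36a), and the part of read placement in these differences was not tested. Rps27 is also counted on a transcript that RefSeq lists as noncoding. Rpl22l1 was lower than Rpl22 (41.7 and 71.8), Rpl7l1 lower than Rpl7 (61.2 and 81.2), Rpl39l lower than Rpl39 (0.340 and 157) and Rpl3l, known as the muscle form, lower than Rpl3 (0.694 and 175). In these pairs the shared stretches were 65.6% in Rpl22l1 and 5.19% in Rpl22, 9.19% in Rpl7l1 and 53.3% in Rpl7, 0% in Rpl39l and 16.5% in Rpl39, and 0% in Rpl3l and 85.6% in Rpl3. The part of read placement was not tested in these pairs either. Rps4y2, whose current symbol is Rps4l, is a transcribed pseudogene that overlaps Tmtc1 and stood at 52.0 ± 4.46. In all, 12 of the 84 members overlap another coding gene.

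Rpl10a, the gene of the protein that carries the tag, had 10.7, 14.9, 17.5 and 16.3 CPM in control replicates 1, 2, 5 and 6 and 12.1, 20.6, 20.8 and 16.5 CPM in morphine replicates 3, 4, 7 and 8. The values of both groups overlapped, with a log2 fold change of 0.24 (SE 0.20, 95% interval -0.19 to 0.67). This value was 0.095 without control replicate 1, 0.15 and 0.13 without morphine replicates 4 and 7, and 0.38 without morphine replicate 3. Its level per length of 51.6 ± 10.2 was rank 39 of 84, and reads of the EGFP-L10a transgene and of the native gene cannot be told apart in these counts.

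The comparison of morphine with control asked whether ribosomal protein mRNAs were present at another level on ribosomes of MOR neurons after chronic morphine. No member passed the test: 0 of 84 had an adjusted P value under 0.05 by the quasi-likelihood test of edgeR (Benjamini-Hochberg over all genes), where 0.195% of all genes (37 of 18939) passed. At an unadjusted P value under 0.05, 8 members were higher with morphine (9.52%, as compared to 6.79% of all genes) and 0 were lower (5.31% of all genes). With 1 library left out, the members under this P value in either direction numbered 3 without control replicate 6 (10.4% of all genes) to 10 without control replicate 2 (18.5% of all genes) or morphine replicate 4 (9.01%). There were 4 without control replicate 1 (7.6% of all genes) and 5 without morphine replicate 3 (13.7%) or 8 (8.86%). With most of these libraries left out the members' share was below that of all genes. In either direction it was also below with all 8 libraries, at 9.52% of the members beside 2292 of the 18939 genes. DESeq2 called 1 member, Rpl5, where it called 2.65% of all genes. Log2 fold changes of the members ran from -0.31 to 0.57, with 58 of 84 above 0 and a median of 0.084, as compared to 51.4% above 0 and a median of 0.0088 over all genes. With GC content and length corrected for, as described below, 41 of 84 were above 0 and the median was -0.023 (-0.036 over all genes). The counts above 0 were 31 of 43 in the large subunit and 22 of 31 in the small subunit, with medians of 0.088 and 0.091, which were -0.026 and 0.010 with the same correction. Of the 7 paralogs 2 were above 0, with a median of -0.064 (-0.12 corrected). Without morphine replicate 3 the median of all members was 0.023, and without morphine replicate 4 it was 0.145. For 81 of the 84 members the 95% interval lay within 1 log2 unit of 0 on both sides, and for 42 it lay within 0.5.

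**Figure D2:**
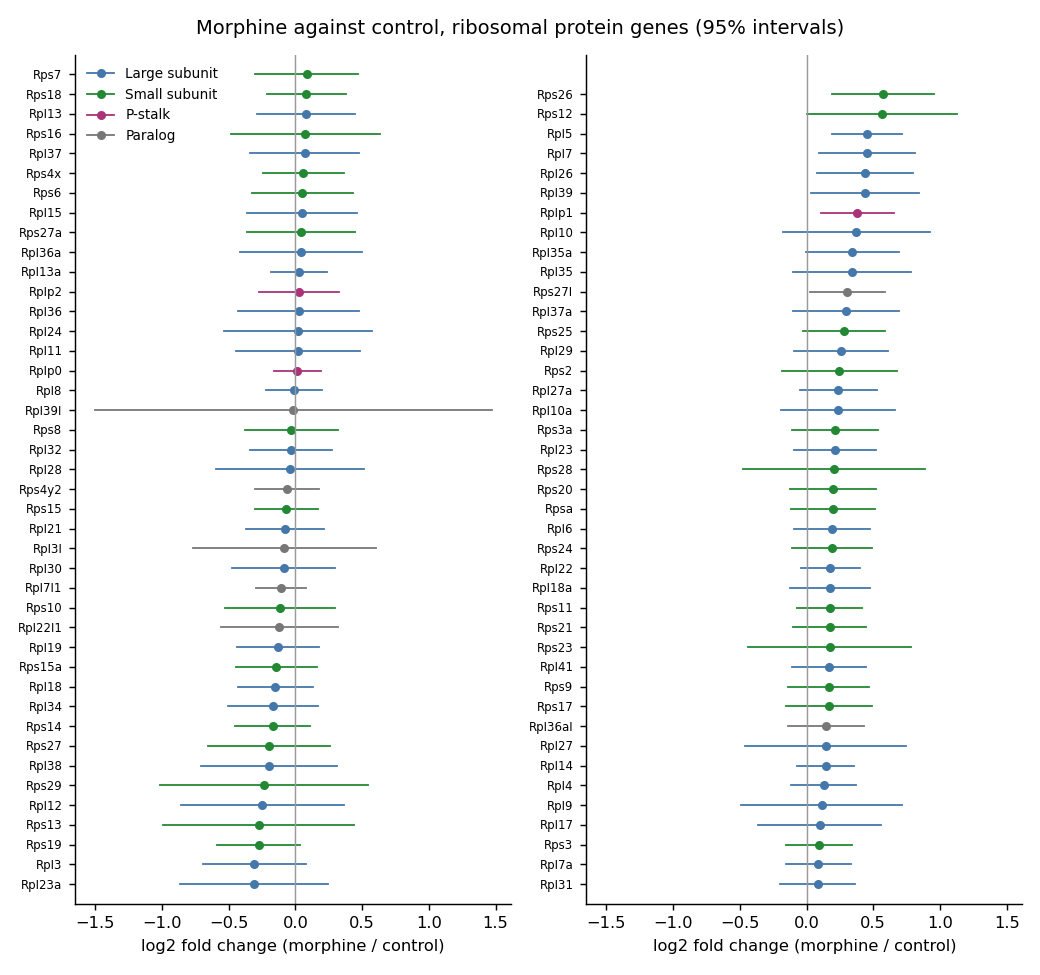
Log2 fold change of 83 of the 84 genes (points) with its 95% interval (lines), morphine relative to control, n = 4 libraries in each group, in order of size and coloured by subunit; 1 member with a value above 0 is not reported here. Of the points, 57 lie right of 0; the adjusted P value was under 0.05 in 0 genes.

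Rpl5, which carries 5S ribosomal RNA into the large subunit, had the lowest P value. It stood at 16.4, 14.3, 15.5 and 16.2 CPM in control replicates 1, 2, 5 and 6 and at 23.9, 17.6, 21.4 and 22.5 CPM in morphine replicates 3, 4, 7 and 8. Every morphine library was above every control library, with a log2 fold change of 0.45 (SE 0.12, 95% interval 0.19 to 0.71), an edgeR adjusted P of 0.154 and a DESeq2 adjusted P of 0.0181. Of its 50-base stretches 93.8% are found in other genes, and its 3′ end overlaps Dipk1a, a gene of the opposite strand listed here as Fam69a. Whether strand was used in counting is not given, and Fam69a stood at 14.8, 24.8, 15.6 and 14.2 CPM in control and 26.1, 21.6, 17.3 and 26.0 CPM in morphine libraries, with a log2 fold change of 0.39 (SE 0.19, adjusted P of 0.461 by edgeR). Reads of Rpl5, its copies and this neighbour cannot be told apart in the overlap.

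Rps26, a small subunit protein near the mRNA exit, stood at 59.7, 56.4, 75.1 and 50.5 CPM in control replicates 1, 2, 5 and 6 and at 118, 66.1, 79.8 and 94.8 CPM in morphine replicates 3, 4, 7 and 8. Morphine replicate 3 was highest and morphine replicate 4 lay below control replicate 5, so the groups overlapped. Its log2 fold change of 0.57 (SE 0.17) had an edgeR adjusted P of 0.219 and was 0.41 without morphine replicate 3.

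Rpl7, a large subunit protein, had 33.8, 33.4, 33.4 and 30.2 CPM in control and 62.2, 36.4, 35.6 and 44.8 CPM in morphine libraries, in the same order of replicates. The groups did not overlap, but morphine replicate 3 stood well above the others, and the log2 fold change of 0.45 (SE 0.16, edgeR adjusted P of 0.295) was 0.25 without it. Rps27l, a paralog of Rps27 known as a p53 target, was the third member without overlap, with 9.72, 9.86, 9.44 and 8.06 CPM in control and 13.2, 11.1, 10.1 and 11.4 CPM in morphine libraries. Its log2 fold change was 0.31 (SE 0.13, edgeR adjusted P of 0.374). The 3 members with every morphine value above every control value were 3.57% of the members, as compared to 3.34% of all genes; 0 members lay in the opposite order, as compared to 3.21% of all genes.

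**Figure D3:**
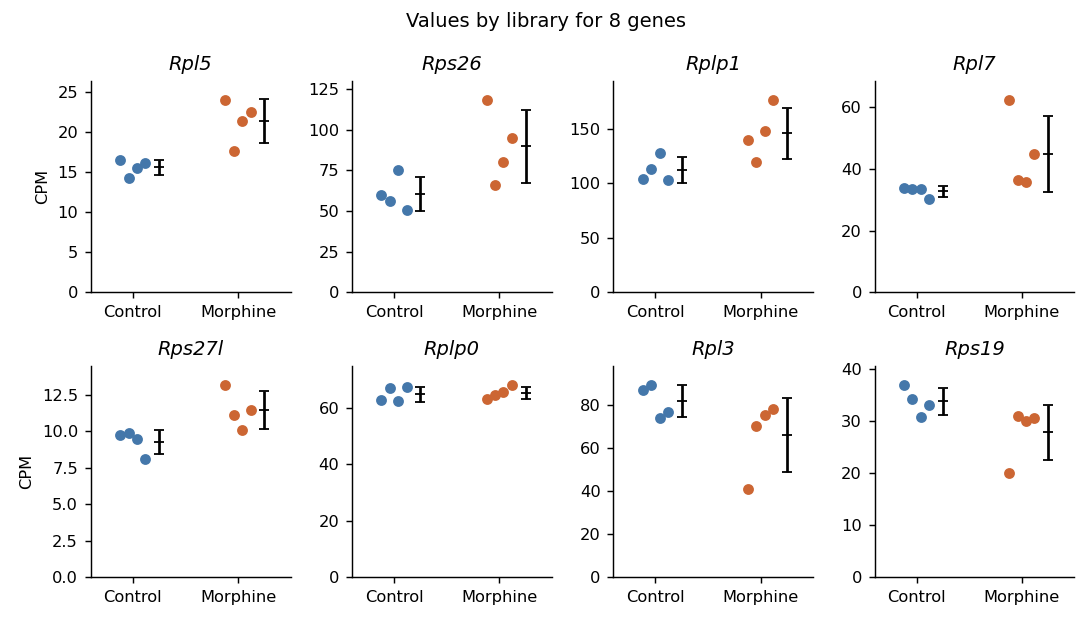
CPM in each of the 4 control and 4 morphine libraries (points, in order of replicate number) with the mean and SD beside them, for 8 genes. Rpl5, Rpl7 and Rps27l do not overlap between groups, Rplp0 lies between 62.5 and 68.2 CPM in both groups, and morphine replicate 3, the first morphine point, is the highest for Rpl5, Rps26, Rpl7 and Rps27l and the lowest for Rpl3 and Rps19.

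Rpl26, known to bind p53 mRNA, had 12.3, 13.8, 14.2 and 11.6 CPM in control and 22.3, 13.4, 14.9 and 19.6 CPM in morphine libraries. The groups overlapped, with a log2 fold change of 0.44 (SE 0.16, edgeR adjusted P of 0.313). Rpl39, at the mouth of the exit tunnel, had 33.9, 35.1, 32.4 and 31.2 CPM in control and 66.2, 43.6, 33.6 and 36.2 CPM in morphine libraries, a log2 fold change of 0.44 that was 0.19 without morphine replicate 3. The eighth member with an unadjusted P value under 0.05 was Rps12, named here after its values were seen, which held 265 counts over the 8 libraries and had a log2 fold change of 0.57 (SE 0.26).

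The P-stalk recruits the elongation factors to the ribosome, and its 3 genes had unlike values. Rplp0, the base of the stalk, stood at 62.7, 67.1, 62.5 and 67.4 CPM in control and 63.3, 64.8, 65.7 and 68.2 CPM in morphine libraries. Its pooled within-group SD of 0.053 on the log2 scale was the smallest of all members, and its log2 fold change was 0.012 (95% interval -0.16 to 0.19). Rplp1 had 104, 113, 128 and 104 CPM in control and 139.8, 120.2, 148 and 177 CPM in morphine libraries; morphine replicate 4 lay below control replicate 5. Its log2 fold change was 0.38 (SE 0.12, edgeR adjusted P of 0.249), and that of its partner Rplp2 was 0.027 (95% interval -0.27 to 0.33). The difference between Rplp1 and the other two was not tested.

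Of the members with values below 0, Rps19, the small subunit gene mutated in Diamond-Blackfan anaemia, had the lowest P value. It stood at 36.9, 34.1, 30.8 and 33.1 CPM in control and 19.9, 30.8, 30.0 and 30.6 CPM in morphine libraries, a log2 fold change of -0.28 (SE 0.14, edgeR adjusted P of 0.473) that was -0.15 without morphine replicate 3. Rpl3, which lies by the peptidyl transferase centre, stood at 87.0, 89.1, 74.0 and 76.5 CPM in control and 40.7, 69.9, 75.3 and 77.9 CPM in morphine libraries, with a log2 fold change of -0.31 (SE 0.18) and -0.13 without that library. In both genes morphine replicate 3 was the lowest of the 8 libraries. Rpl7l1 (-0.11), Rps14 (-0.17) and Rpl23a (-0.31) completed the 5 lowest P values in this direction, with edgeR adjusted P values of 0.657, 0.639 and 0.670. Rpl7l1 was at -0.066 without morphine replicate 4, Rps14 at -0.079 without control replicate 2 and -0.26 without control replicate 5, and Rpl23a at -0.20 without control replicate 5 and -0.17 without morphine replicate 4.

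Further members with known roles outside or beside the ribosome overlapped between groups. Rps6, the substrate of the S6 kinases downstream of mTORC1, had a log2 fold change of 0.049 (95% interval -0.33 to 0.43), and Rps27a, made as a fusion with ubiquitin, one of 0.042 (-0.37 to 0.45). Rpsa, also known as the laminin receptor, had 0.20 (-0.12 to 0.51), and Rpl22 had 0.18 (-0.044 to 0.40). The value of Rpsa was 0.054 without morphine replicate 8 and that of Rpl22 0.0996 without morphine replicate 3. Rps6 and Rps27a, and the P-stalk genes Rplp0 and Rplp2, turned below 0 with single libraries left out. Of the proteins bound to the ribosome or made as fusions whose genes fall outside the naming rule, Fau had -0.39 (-0.85 to 0.064) and Rack1, listed as Gnb2l1, 0.13 (-0.048 to 0.31).

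The members also varied between libraries of 1 group. The pooled within-group SD of log2 CPM was smallest in Rplp0 (0.053), followed by Rpl7l1 (0.076). It was largest in Rpl39l (0.60), Rps13 (0.47) and Rps29 (0.46), which held 29, 253 and 164 counts. For the 42 members with a mean between 2.08 and 38.4 CPM the median SD was 0.19, as compared to 0.20 over the 6636 other genes in this range.

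Morphine replicate 3 stood apart. It was the highest of the 8 libraries in 34 of the 84 members, and 68 members lay above their own mean there. The median log2 difference of the members from their own mean was 0.19 in this library and 0.084 in morphine replicate 8. It was -0.069 and -0.057 in morphine replicates 4 and 7, so the morphine libraries did not lie on one side of 0. In control libraries it was 0.010, 0.014, -0.090 and -0.096 in replicates 1, 2, 5 and 6. Without morphine replicate 3, 47 of 84 members had a log2 fold change above 0, with a median of 0.023. Without control replicate 5 it was 0.049, with 48 above 0, and without both of these libraries it was -0.00023, with 42 above 0, a fit chosen after the data were seen. The medians over all genes in these fits, in the same order, were -0.0091, -0.0076 and -0.00024, as compared to 0.0088 with all libraries.

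The members were set beside other short genes, library by library. The counted transcripts of the members had a median of 818 bases, as compared to 2668 over all genes. The 666 other genes of up to 1000 bases with a mean of at least 50 counts had medians of 0.0072, 0.071, -0.048 and -0.12 in control replicates 1, 2, 5 and 6 and 0.13, 0.023, -0.063 and 0.038 in morphine replicates 3, 4, 7 and 8. Their sign was that of the members in all libraries but morphine replicate 4. Within morphine replicate 3 the members of at most 50% GC had a median difference of 0.34, those between 50% and 54% one of 0.15 and those above 54% one of 0.053. In the same GC ranges the other genes stood at 0.096, -0.024 and -0.13 in this library, for genes of all lengths. With the trend of all genes with GC content and length removed, the medians of the members were 0.067, -0.027, -0.027 and -0.0061 in control replicates 1, 2, 5 and 6 and 0.044, -0.085, -0.0052 and 0.0078 in morphine replicates 3, 4, 7 and 8. Control replicate 1 was then highest (0.010 before), morphine replicate 3 followed (0.19 before) and morphine replicate 4 was lowest (-0.069 before).

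**Figure D4:**
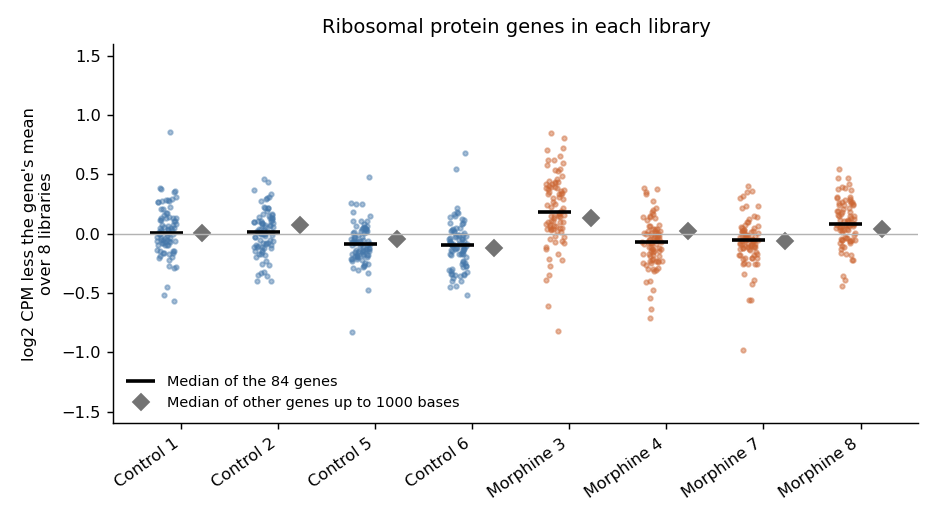
Log2 CPM of each of the 84 genes less its own mean over the 8 libraries (points), with the median of the members (bar) and of the 666 other genes of up to 1000 bases (diamond), by library; colours separate control from morphine. The bar of morphine replicate 3 is highest at 0.19, with the diamond at 0.13, and morphine replicates 4 and 7 lie below 0 for the members.

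When the trend of all genes with GC content and length was removed in each library, the members had the median of -0.023 given above. In that fit Rpl5 had a log2 fold change of 0.35, Rps26 0.43, Rplp1 0.31 and Rpl7 0.33, while Rps27l had 0.18 in place of 0.31. Of the members, 5 were higher and 1, Rps19 at -0.35, was lower at an unadjusted P value under 0.05 there (all genes: 6.05% higher and 7.22% lower), and 0 members passed the adjusted threshold.

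Other gene groups were set beside the members. The median log2 fold change was 0.060 over 76 mitochondrial ribosomal protein genes (71.1% above 0, median length 1224.5 bases), 0.064 over 83 respiratory chain genes (75.9% above 0, median length 732 bases) and 0.055 over the 666 short genes (65.2% above 0). Mitochondrial ribosomal proteins are encoded in the nucleus and serve the separate ribosomes inside mitochondria. After removal of the GC and length trend these medians were -0.0059, -0.021 and -0.035. Over 39 proteasome subunit genes (median length 1541 bases) the median was 0.016, and -0.068 after the same removal. Of the genes of these 3 families 0 passed in edgeR or DESeq2. At an unadjusted P value under 0.05, edgeR gave 1 higher and 1 lower mitochondrial ribosomal protein gene, 4 higher and 1 lower respiratory chain genes and 1 lower proteasome gene (all genes: 6.79% higher and 5.31% lower).

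The genes that make, load or regulate the ribosome were listed by role. Of 35 initiation factors 17 had a log2 fold change above 0 (median -0.0042), of 16 elongation and termination factors 5 (median -0.025), of 21 other mRNAs known to carry a TOP run 12 (median 0.034), of 66 ribosome biogenesis genes 24 (median -0.049) and of 28 genes of the mTORC1 pathway 9 (median -0.082). After removal of the GC and length trend these medians were, in the same order, -0.037, -0.076, -0.043, -0.087 and -0.109 (all genes: -0.036). By edgeR 0 genes of these lists passed in either direction. At an unadjusted P value under 0.05 there were 0 initiation factors, 2 elongation and termination factors (both lower), 1 higher and 1 lower TOP mRNA, 1 higher and 2 lower biogenesis genes, and 1 higher and 3 lower mTORC1 genes. Over all genes the shares were 6.79% higher and 5.31% lower. DESeq2 called 1 gene of these lists, Ddit4l, where it called 2.65% of all genes.

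Among the 2 genes of lowest P value in each list, the subunits Eif3f (0.21) and Eif2b5 (0.14) of initiation factors had every morphine value above every control value. Their edgeR adjusted P values were 0.413 and 0.513. Eef1d, an exchange factor for eEF1A that counts under both elongation factors and TOP mRNAs, had a log2 fold change of -0.24 (SE 0.088), and Pelo, a factor that rescues stalled ribosomes, one of -0.22 (SE 0.098). In both, every morphine value was below every control value, and the edgeR adjusted P values were 0.297 and 0.384. Groups without overlap were found in 2 of the 35 initiation factors (morphine above) and in 3 of the 16 elongation and termination factors (morphine below). Over all genes the shares were 3.34% above and 3.21% below. The TOP mRNA Tpt1 stood at 0.57 (SE 0.20), and the biogenesis genes Taf1b, a subunit of an RNA polymerase I factor, and Nop56, of the box C/D snoRNPs, at 0.28 and -0.22. Ddit4l, an inhibitor of mTORC1, stood at 1.32 ± 0.630 CPM in control and 5.39 ± 3.53 CPM in morphine libraries (SD, n = 4), a log2 fold change of 2.02 (SE 0.51, edgeR adjusted P of 0.143), and Deptor, an mTOR inhibitor, had -0.42 (SE 0.16, edgeR adjusted P of 0.306).

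**Figure D5:**
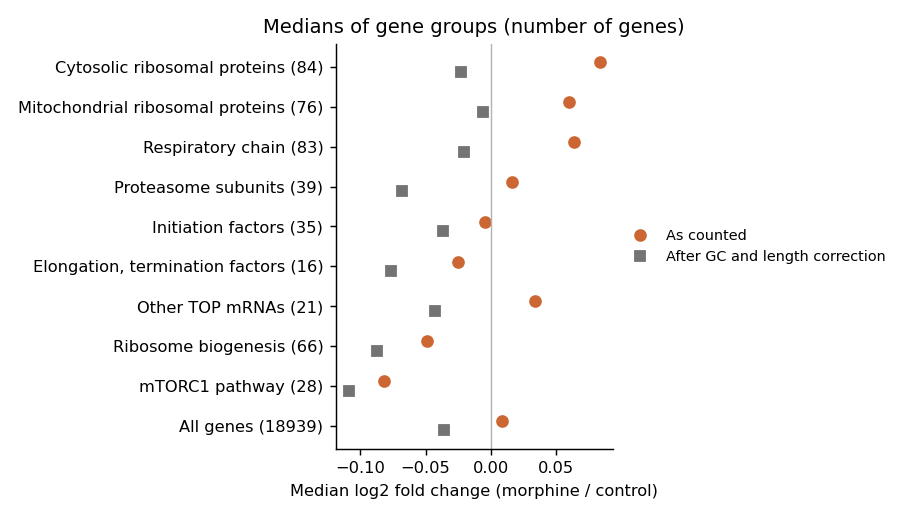
Median log2 fold change with morphine over each gene group (number of genes in brackets), as counted (circles) and after removal of the trend with GC content and length (squares). The cytosolic ribosomal protein genes lie at 0.084 and -0.023, and all genes at 0.0088 and -0.036.

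Sex was compared in a model that also held condition. By edgeR 0 of 84 members passed the adjusted threshold, as compared to 0.00528% of all genes (1 gene), and at an unadjusted P value under 0.05 there were 4 members (4.76%), as compared to 3.1% of all genes. This count was 1 without morphine replicate 7 (3.16% of all genes), 2 without control replicate 1 (2.91%) or morphine replicate 3 (3.07%) or 8 (4.75%), 7 without control replicate 2 (2.73%) and 10 without morphine replicate 4 (5.58%). DESeq2 called 0 members, as compared to 0.111% of all genes (21 genes). The female libraries had the lower value in 56 of 84 members, with a median log2 difference of -0.099, as compared to -0.011 over all genes and -0.125 over the 83 respiratory chain genes. Rpl22l1, the paralog of Rpl22, had the lowest P value. It stood at 8.46, 9.68, 9.92 and 7.60 CPM in the male libraries (control 1 and 2, morphine 3 and 4) and at 6.29, 7.41, 5.91 and 5.84 CPM in the female libraries (control 5 and 6, morphine 7 and 8). Every male library was above every female library, with a log2 difference of -0.49 (SE 0.15, edgeR adjusted P of 0.9996). Rpl39 followed at -0.39 (SE 0.15). Control replicate 5, with its Y-linked counts, was among the female libraries here, and 0 members passed without it as well.

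The interaction of sex and morphine was tested in a model with both. By edgeR 0 of 84 members passed, as 0% of all genes did, and 2 members had an unadjusted P value under 0.05 (2.38%, as compared to 1.72% of all genes). This count was 0 without control replicate 2 (2.07% of all genes), 5 (1.64%) or 6 (2.24%) or morphine replicate 8 (1.42%), 1 without control replicate 1 (4.45%) or morphine replicate 7 (3.64%), and 9 without morphine replicate 4 (4% of all genes). DESeq2 called 0 members, as compared to 0.0211% of all genes (4 genes). The 2 members of unadjusted P under 0.05 were Rpsa, with a log2 fold change of -0.12 in males and 0.45 in females, and Rpl3, with -0.68 in males and 0.026 in females, each from 2 libraries against 2. The median log2 fold change of all members was 0.032 in the male and 0.121 in the female libraries, and this difference was not tested.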

How the data were processed

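The authors deposited 1 table of raw counts, in whole numbers, of reads on each RefSeq transcript in each library (mm10, per the labels); the methods describe Salmon with tximport for the authors' DESeq2 analysis, but the repeated counts on transcripts of a gene differ from such estimates, and the step that made this table and its use of strand are not given in the sources used here. Each of the 18939 genes was taken from its transcript of highest total count; 75 of the 84 members have 1 transcript. The members and lists were chosen with earlier results of these data known. Counts were normalized with TMM and tested with edgeR 4.0.16 (R 4.3.3, quasi-likelihood test, condition in the model, Benjamini-Hochberg over all genes, adjusted P value under 0.05). Alternatives used DESeq2 1.42.0, limma-voom 3.58.1, RLE and upper-quartile factors, TMM without the members, sex in the model, filterByExpr, a minimum of 10 counts in all libraries, the sum over transcripts, a GC and length offset, each sex alone and each library left out. CPM and log2 CPM (prior count 2) used TMM library sizes. Lengths came from the GENCODE M21 transcript paired with the counted accession, and some of these models have long 3′ ends. All 8 columns were used.

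Genes named are the 5 highest and 5 lowest in level per length, the 5 of lowest P in each direction, the 3 of largest and 3 of smallest spread, the 2 of lowest P by sex and interaction, a list of members with particular roles, and from the other lists the 2 of lowest P. Exceptions are named in the text. Some genes that this rule names are not reported here. On simulated counts for 18608 genes with 200 changed by 1.5 log2 units, edgeR recovered 96.2% with 5.97% false calls, for morphine against control. Log2 changes of the size seen in the members (-0.31 to 0.57) were not simulated, and genes of the lowest CPM were not among those changed. Recovery at such sizes and levels was not measured. Totals of 31151103 to 47582947 counts per library leave counting error as a limit for members with under 100 counts per library on average (23 of 84), and PCR copies are not marked. Starts came from RefSeq GRCm38.p6.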

Additional observations from a re-analysis of the deposited data

Results flagged for a closer look

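A single library stood far from the other 3 of its group in 3 of the values for named members, with 70 groups of 4 libraries looked at; chance alone marks about 1 in 20 groups. Rps19 was at 19.9 CPM in morphine replicate 3, with the other morphine libraries between 30.0 and 30.8 CPM. Rpl7 was at 30.2 CPM in control replicate 6, with the other control libraries between 33.4 and 33.8 CPM. Rpl23a was at 1.43 CPM in control replicate 5, the library labelled female with Y-linked counts, with the other control libraries between 1.03 and 1.08 CPM.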

How the results depend on the processing

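DESeq2 called 1 member, Rpl5, where edgeR called 0; the 0 held in edgeR and limma-voom under all the other settings, libraries left out included. The cause was not tested. With a GC and length offset the median log2 fold change of the members was -0.023 in place of 0.084. With 1 library left out it ran from 0.023 (without morphine replicate 3) to 0.145 (without morphine replicate 4), without control replicate 5 it was 0.049, and under the other planned settings it ran from 0.032 (males alone) to 0.121 (females alone). Over the 30 members with a mean of at least 100 counts and under 50% shared stretches, chosen after the data were seen, it was 0.135. The members without overlap between groups were 4 with upper-quartile factors and 3 otherwise. Of 711 alternative values for the 34 named members, 48 had the opposite sign to the main value, in 16 members, and 0 of these were called. The list of the 10 highest levels shared 9 genes when 200 bases were taken off each length, and the difference in share of counts kept its direction with the sum over transcripts. Counts of 0 called by sex and by interaction held in every setting run. Few counts limit members such as Rpl39l and Rps29, whose 95% intervals pass 1 log2 unit. No paired analysis was possible because the groups share no replicate numbers.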
